A study of Mus musculus with 12 samples.

Results

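The miR-379 to miR-410 cluster is a run of microRNA genes on mouse chromosome 12. A list of 37 genes, from Mir379 to Mir410, was looked up in the array annotation. Of these, 30 had a probe set assigned to that gene alone, and each of the 30 had 1 such probe set. The other 7 (Mir1197, Mir758, Mir1193, Mir654, Mir544, Mir453 and Mir410) had none and were left out. Mir410 appears in the annotation only on a probe set that it shares with Mirg, a long non-coding RNA gene, and that probe set is described separately. The 30 members stand among 19938 genes represented by single-gene probe sets in the series.

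The study used 12 Affymetrix arrays of 4 induced pluripotent stem (iPS) cell lines, with 3 cultures per line. All 4 lines came from C57BL/6J mouse embryonic fibroblasts reprogrammed with 3 factors, which the labels do not name, and were kept in embryonic stem cell medium. LiPS-45 and LiPS-57 are labelled as competent in tetraploid complementation, in which iPS cells injected into a tetraploid host embryo must form the whole fetus. LiPS-47 and LiPS-50 are labelled as lacking that competence. The labels call the cultures biological repeats and do not say how they were separated, so the error behind a p-value is only how far cultures of 1 line differ, and each state of competence is represented by 2 lines only.

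The cluster lies in the Dlk1-Dio3 imprinted domain. Its microRNAs are expressed from the maternally inherited chromosome, together with the long non-coding RNAs Meg3, Rian and Mirg, and are thought to be cut from long precursor transcripts. In the mouse they are abundant in brain, embryo and placenta. In other mouse iPS lines, silencing of the maternally expressed RNAs of this domain has been linked to failure in tetraploid complementation. MicroRNAs are cut from a hairpin into short mature strands that pair with messenger RNAs mainly through their seed, bases 2 to 8. The arrays were hybridised with whole-transcript cDNA, so a probe set here reads RNA that carries the hairpin region, and mature microRNA was not measured.

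RefSeq holds mature strands for all 37 listed genes and hairpins for 35 of them on GRCm38.p6. The 35 hairpins all lie on the plus strand, within chr12:109709060-109743795. The array annotation used here names no build, so these positions are those of the hairpins and not of the probe sets. Among 69 mature sequences there were 63 distinct seeds, and 6 seeds were shared by 2 genes each. Some genes, Mir487b and Mir539 among them, had only a 5p strand in this list. Seeds of strands that are not listed were not counted. The mature strands RefSeq lists for the 6 members with the smallest p-values in LiPS-45 against LiPS-57 come first below. They are written 5′ to 3′ with the seed in capitals. Their seeds all differ from one another.
miR-679-5p: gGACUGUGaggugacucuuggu
miR-679-3p: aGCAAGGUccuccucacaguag
miR-329-5p: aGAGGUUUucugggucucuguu
miR-329-3p: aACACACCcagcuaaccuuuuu
miR-539-5p: gGAGAAAUuauccuuggugugu
miR-487b-5p: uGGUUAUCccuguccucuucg
miR-382-5p: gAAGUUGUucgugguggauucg
miR-382-3p: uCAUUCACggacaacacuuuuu
miR-380-5p: aUGGUUGAccauagaacaugcg
miR-380-3p: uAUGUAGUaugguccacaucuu

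The strands that share a seed are shown in pairs, again with the seed in capitals. Both genes of a pair were measured only for miR-379-3p with miR-411-3p and for miR-376c-5p with miR-376b-5p.
miR-379-3p: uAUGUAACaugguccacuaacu
miR-411-3p: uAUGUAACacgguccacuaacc
miR-376c-5p: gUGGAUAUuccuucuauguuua
miR-376b-5p: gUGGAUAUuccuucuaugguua
miR-379-5p: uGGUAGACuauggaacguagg
miR-1193-5p: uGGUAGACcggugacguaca
miR-453: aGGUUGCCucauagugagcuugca
miR-496a-5p: aGGUUGCCcaugguguguuca
miR-494-5p: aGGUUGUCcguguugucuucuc
miR-410-5p: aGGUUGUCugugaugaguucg
miR-1197-5p: cGGUUGACcaugguguguacg
miR-758-5p: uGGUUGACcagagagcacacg

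A further pair, chosen after its values were seen, is similar over most of its length but differs within the seed.
miR-300-3p: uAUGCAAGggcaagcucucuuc
miR-381-3p: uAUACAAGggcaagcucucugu

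Of 595 pairs of hairpins of the cluster, 8 were at least 70% identical when aligned over their whole length. Unrelated hairpins were not aligned for comparison. The closest were Mir376c with Mir376b at 80.7% and Mir300 with Mir381 at 73.8%. Signal from such a pair may be split between their probe sets, and the share of each was not tested.

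Across the 12 arrays the values of different arrays lay on nearly the same scale, with lower quartiles, medians and upper quartiles over the tested probe sets that ranged over 0.112, 0.0981 and 0.089 on the log2 scale. Cultures of a line correlated at 0.996 or more. All values below are log2(intensity + 1). All 12 markers of pluripotent cells that were listed for a check of the cell type lay above the 40th percentile of probe set means in every line. Of 18 listed fibroblast markers, 17 were measured. Only Lum was below that percentile, in all lines except LiPS-50. Their summed intensity was 22964 to 26933 in LiPS-45, 23247 to 24777 in LiPS-57, 19786 to 24224 in LiPS-47 and 31241 to 34773 in LiPS-50.

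The cluster was highest in LiPS-45 and lowest in LiPS-57, the 2 competent lines, with both lines that lack competence in between. LiPS-45 had the highest mean for 27 of the 30 members and LiPS-57 had the lowest for 29. The order LiPS-45, LiPS-47, LiPS-50, LiPS-57 held for 19 members and the order LiPS-45, LiPS-50, LiPS-47, LiPS-57 for 8 more. With each member centred on its mean over all arrays, the median over the 30 members was 0.252 to 0.352 in the 3 LiPS-45 cultures and -0.437 to -0.324 in the LiPS-57 cultures. It was 0.0538 to 0.110 in the LiPS-47 cultures and -0.105 to 0.0304 in the LiPS-50 cultures. LiPS-47 and LiPS-50 were neighbours in both of these orders. The standard deviation between cultures of a line, pooled over the lines, had a median of 0.156 over the members, against a median of 0.684 for the distance from the highest to the lowest line mean.

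**Figure D1:**
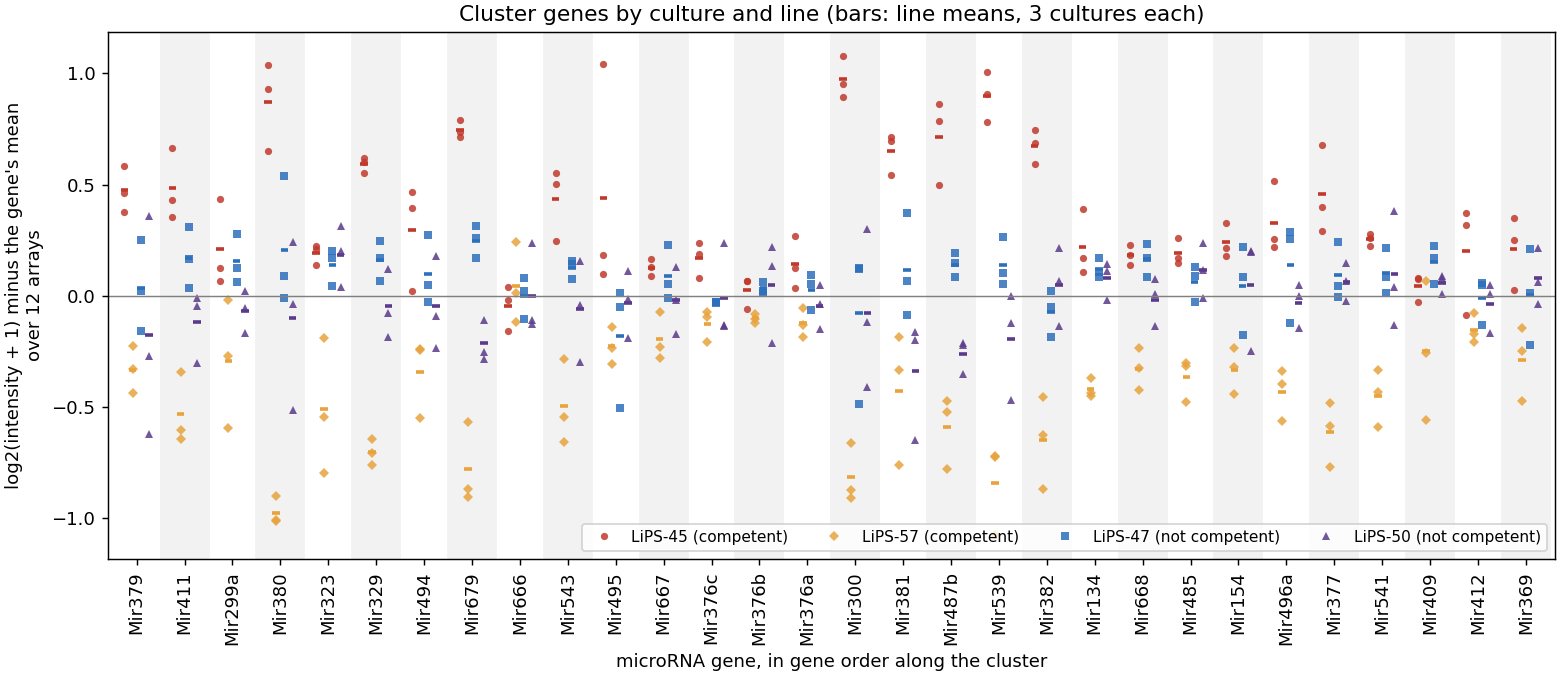
The 30 members stand in gene order along the horizontal axis. Each point is a culture, with colour and shape for its line (LiPS-45, LiPS-57, LiPS-47 or LiPS-50), and short bars are line means. The height gives log2(intensity + 1) minus the member's mean over all 12 arrays. The LiPS-45 points are above the mean in most members and the LiPS-57 points below it, while the points of all lines overlap in Mir666.

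In LiPS-45 against LiPS-57, 17 of the 30 members were higher in LiPS-45 and none was lower, at a Benjamini-Hochberg adjusted p under 0.05 in limma's moderated test over all 28939 probe sets. Of all probe sets tested, 0.214% were higher and 0.0518% were lower by the same rule. In 27 members every LiPS-45 culture was above every LiPS-57 culture, which held for 7.39% of all probe sets. An unadjusted p under 0.05 was reached by 28 members, all but Mir666 and Mir376b, and by 8.01% of all probe sets. The median difference over the 30 members was 0.68, and over all probe sets it was 0.00. None of 260 microRNA genes outside the domain passed the test in this comparison, and 20 of them had an unadjusted p under 0.05. Since these are whole cultures, fewer cells that express the cluster and less RNA per cell cannot be told apart.

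Mir679, which lies between Mir494 and Mir666 among the measured members, had the smallest p-value of the members. Its values were 8.69, 8.74 and 8.67 in LiPS-45, against 7.38, 7.05 and 7.08 in LiPS-57. LiPS-47 had 8.26, 8.12 and 8.21 and LiPS-50 had 7.85, 7.67 and 7.70, so no culture of one line overlapped another line. The LiPS-45 level was 1.53 ± 0.0882 (SE, n = 3 cultures each) above LiPS-57 on the log2 scale, with an adjusted p of 9.98e-06.

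Mir329 encodes a microRNA that, in rat neurons, takes part in the growth of dendrites that follows activity. It measured 7.24, 7.29 and 7.31 in LiPS-45, against 5.98, 6.04 and 5.93 in LiPS-57. The values were 6.94, 6.75 and 6.86 in LiPS-47 and 6.81, 6.61 and 6.50 in LiPS-50. LiPS-57 lay below all other cultures and LiPS-45 above them, while LiPS-47 and LiPS-50 overlapped. The LiPS-45 minus LiPS-57 difference was 1.30 ± 0.0803 (SE), a 2.46-fold higher level, with an adjusted p of 1.39e-05.

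Mir539 had 6.18, 6.40 and 6.30 in LiPS-45, against 4.32, 4.67 and 4.67 in LiPS-57. Its values were 5.50, 5.45 and 5.66 in LiPS-47 and 5.27, 5.39 and 4.93 in LiPS-50. As with Mir679, the 4 lines did not overlap. The difference between LiPS-45 and LiPS-57 was 1.74 ± 0.127 (SE), with an adjusted p of 4.07e-05.

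Mir487b had 6.91, 6.99 and 6.63 in LiPS-45, against 5.60, 5.66 and 5.35 in LiPS-57, with 6.32, 6.28 and 6.21 in LiPS-47 and 5.91, 5.78 and 5.92 in LiPS-50. Again each line held a range of its own. LiPS-45 was 1.31 ± 0.102 (SE) above LiPS-57, with an adjusted p of 6.05e-05.

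Mir382 had 6.93, 6.84 and 6.99 in LiPS-45, against 5.79, 5.38 and 5.62 in LiPS-57. In this gene LiPS-50, with 6.46, 6.11 and 6.32, averaged slightly above LiPS-47, with 6.27, 6.20 and 6.06, and the ranges of those lines overlapped. The LiPS-45 minus LiPS-57 difference was 1.32 ± 0.111 (SE), with an adjusted p of 9.72e-05.

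Mir380 and Mir300 had the largest differences between LiPS-45 and LiPS-57 but also spread more between cultures. Mir380 had 6.58, 6.86 and 6.97 in LiPS-45, against 4.92, 5.03 and 4.92 in LiPS-57, and its difference was 1.85 ± 0.181 (SE) with an adjusted p of 0.000372. It had 6.47, 5.92 and 6.02 in LiPS-47 and 6.18, 5.42 and 5.90 in LiPS-50, so the lines without competence overlapped and both stayed between LiPS-45 and LiPS-57. Mir300 had 6.30, 6.11 and 6.17 in LiPS-45, against 4.31, 4.35 and 4.56 in LiPS-57, with a difference of 1.79 ± 0.182 (SE) and an adjusted p of 0.000491. Its LiPS-47 values of 5.34, 4.74 and 5.35 and its LiPS-50 values of 5.52, 4.81 and 5.10 interleaved.

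**Figure D2:**
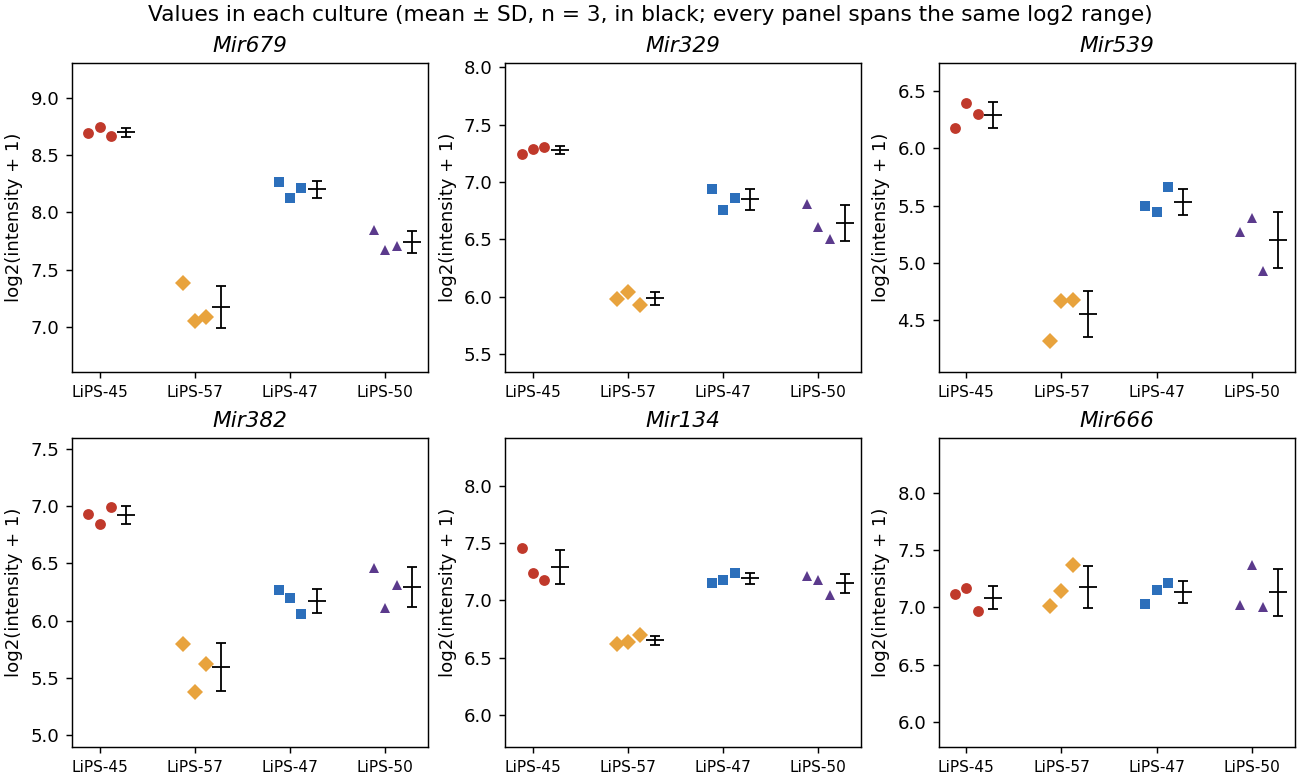
Points are single cultures of LiPS-45, LiPS-57, LiPS-47 and LiPS-50, in log2(intensity + 1), for Mir679, Mir329, Mir539, Mir382, Mir134 and Mir666. Black bars give the line mean ± SD (n = 3 cultures). In the first 5 the LiPS-57 cultures lie below the cultures of every other line, while the Mir666 cultures of the 4 lines overlap.

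Mir134 encodes a microRNA studied for its control of dendritic spines through Limk1 in rat neurons, and for targeting Nanog, Nr5a2, Pou5f1 and Sox2 messages in mouse embryonic stem cells. It had 7.46, 7.24 and 7.18 in LiPS-45, against 6.62, 6.63 and 6.70 in LiPS-57, and LiPS-47 (7.15, 7.18 and 7.24) and LiPS-50 (7.21, 7.18 and 7.05) overlapped LiPS-45. Only LiPS-57 stood apart for this gene. The LiPS-45 minus LiPS-57 difference was 0.64 ± 0.0773 (SE), with an adjusted p of 0.00228.

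The other 9 members that passed the test were Mir411, Mir323, Mir543, Mir381, Mir668, Mir485, Mir496a, Mir377 and Mir541, with differences between 0.51 in Mir668 and 1.08 in Mir381. Mir377 had 5.14, 5.25 and 5.53 in LiPS-45, against 4.26, 4.37 and 4.08 in LiPS-57. Mir411, the gene next to Mir379, had 5.36, 5.29 and 5.59 in LiPS-45, against 4.33, 4.59 and 4.29 in LiPS-57. Neither gene overlapped between these lines, and both differences, 1.07 ± 0.108 and 1.01 ± 0.114 (SE), had adjusted p-values of 0.00049 and 0.00121 in the order named. Mir485, whose microRNA acts on the synaptic vesicle protein Sv2a in rat neurons, had 6.39, 6.48 and 6.37 in LiPS-45, against 5.74, 5.90 and 5.92 in LiPS-57. Mir381, whose microRNA is another of those linked to dendrite growth in rat neurons, had 5.24, 5.41 and 5.39 in LiPS-45, against 3.93, 4.51 and 4.36 in LiPS-57. Both were separated between the lines.

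Of the 17 calls, 11 held under every alternative that tested the gene. The other 6 did not. Mir323, with an adjusted p of 0.046, lost its call in 16 of 20 alternatives (adjusted p 0.00331 to 0.238 over them), 11 of which each left out 1 of the cultures other than LiPS-57 replicate 1. Mir541 lost it when any 1 culture of either line was left out (0.00308 to 0.137), and Mir381 when any LiPS-45 culture or replicate 1 or 3 of LiPS-57 was (0.00696 to 0.0926). Mir668 lost it without replicate 1 or 3 of either line (0.00387 to 0.0660). Mir496a lost it without LiPS-45 replicate 1 or 3 or LiPS-57 replicate 1 or 2 (0.00394 to 0.106), and Mir485 without LiPS-45 replicate 2 or LiPS-57 replicate 1 (0.00335 to 0.0583). Mir323, Mir381, Mir496a and Mir541 also lost the call with control probe sets included, and Mir323 and Mir668 with the 2 lines fitted alone.

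**Figure D3:**
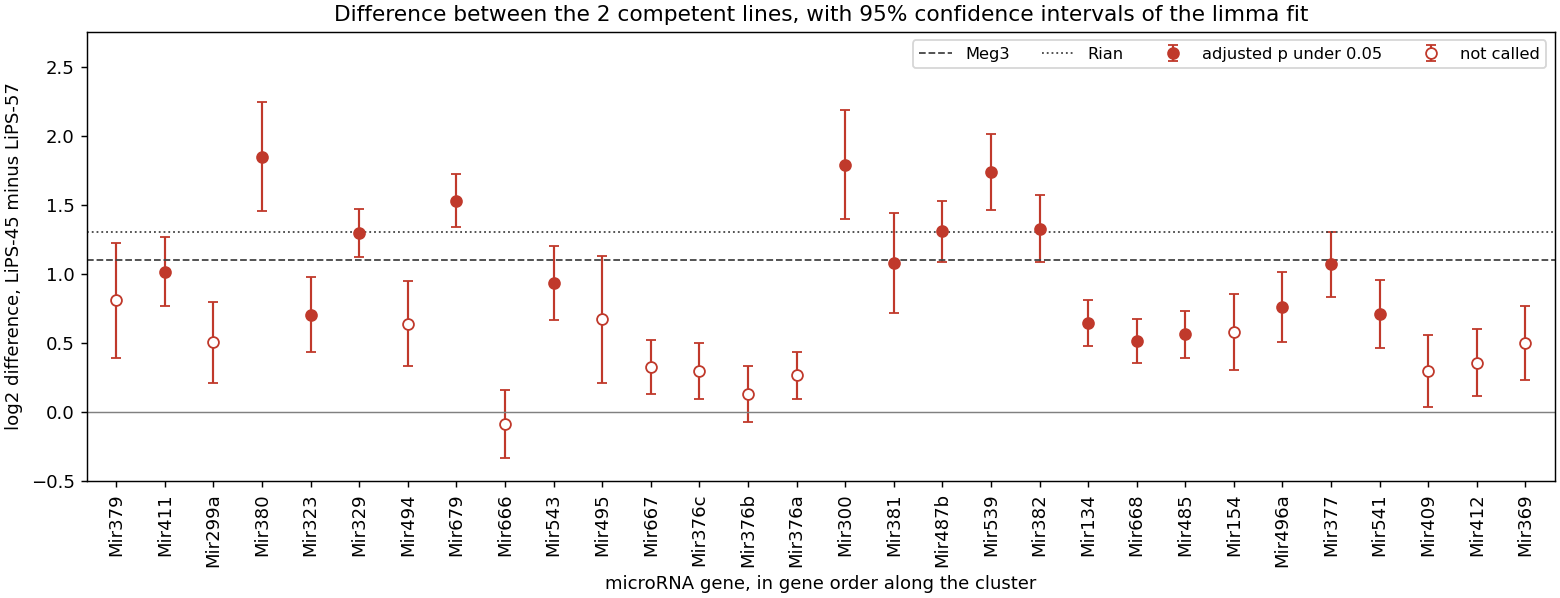
Points give the LiPS-45 minus LiPS-57 difference in log2(intensity + 1) for each of the 30 members in gene order, with 95% confidence intervals from limma's fit. Filled points passed an adjusted p under 0.05, and the differences run between -0.09 in Mir666 and 1.85 in Mir380.

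The 13 members that did not pass the test had LiPS-45 minus LiPS-57 differences between -0.09 and 0.81. Mir379, the first gene of the cluster, had 4.13, 4.04 and 4.25 in LiPS-45, against 3.44, 3.34 and 3.23 in LiPS-57. Its cultures were separated between these lines, but the LiPS-50 cultures, at 4.02, 3.05 and 3.40, ranged widely, and the fit over all arrays gave an adjusted p of 0.212. It passed without LiPS-50 replicate 1 and with the 2 lines fitted alone, and its adjusted p ran between 0.0106 and 0.538 over the alternatives. Mir154, with an adjusted p of 0.15, passed without LiPS-50 replicate 2 and with the 2 lines alone, and its range was 0.0435 to 0.416.

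Mir376a, Mir376b and Mir376c, a family whose primary transcripts are edited by ADAR enzymes in mouse and human tissue, lay near the bottom of the range of the arrays. Mir376b had 3.07, 2.95 and 3.07 in LiPS-45, against 2.90, 2.89 and 2.93 in LiPS-57, a difference of 0.13 with a 95% confidence interval of -0.08 to 0.33. Mir376c had 2.95, 3.11 and 3.06 in LiPS-45, against 2.78, 2.66 and 2.80 in LiPS-57, and Mir376a had 2.86, 2.95 and 3.09 against 2.77, 2.69 and 2.64. The lines were separated in all 3 genes, by little. Of the 30 members, 15 had a mean below the 40th percentile of all probe sets, where background is a larger part of the signal. Among those 15 dim members 6 passed the test, and among the 15 brighter ones 11 did.

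Mir666 was the only member with a negative LiPS-45 minus LiPS-57 difference. It had 7.11, 7.17 and 6.97 in LiPS-45, against 7.01, 7.14 and 7.37 in LiPS-57, with 7.03, 7.15 and 7.21 in LiPS-47 and 7.02, 7.37 and 7.00 in LiPS-50. All 4 lines overlapped, and the LiPS-45 minus LiPS-57 difference was -0.09 with a 95% confidence interval of -0.34 to 0.16. Mir409 had 5.30, 5.29 and 5.19 in LiPS-45, against 5.28, 4.96 and 4.66 in LiPS-57, and its LiPS-47 values of 5.39, 5.44 and 5.27 and LiPS-50 values of 5.22, 5.30 and 5.31 were as high as those of LiPS-45. Only LiPS-57 included lower cultures of Mir409, and the difference of 0.29 had an adjusted p of 0.577. Mir412 was the third member whose LiPS-45 and LiPS-57 cultures overlapped, with 4.52, 4.11 and 4.57 in LiPS-45, against 4.03, 4.12 and 3.99 in LiPS-57. Mir369, whose microRNA has been used with others to reprogram mouse and human cells, averaged 4.86 ± 0.166 in LiPS-45, against 4.36 ± 0.167 in LiPS-57 (SD, n = 3 each), with no overlap and an adjusted p of 0.234.

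The members that passed were spread along the cluster. In gene order, 6 of the first 15 and 11 of the second 15 passed, and the longest unbroken run was of 8 members, Mir300 to Mir485. Over the 29 members with a RefSeq hairpin, Spearman's rho of the LiPS-45 minus LiPS-57 difference was 0.0131 with the GC content of the hairpin and -0.124 with its length, and over all 30 it was -0.188 with the place in the cluster. The members share their arrays and may share a transcript, so these values describe the cluster and carry no test. The hairpins of members that passed had a median GC content of 43.4%, against 40.9% for those that did not.

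In LiPS-45 against LiPS-47, only Mir382 was called, higher in LiPS-45, where 0.0415% of all probe sets were called higher and 0.0207% lower. Its difference was 0.75 ± 0.111 (SE), a 1.68-fold higher level, with an adjusted p of 0.0400. In 16 members all LiPS-45 cultures were above all LiPS-47 cultures (6.57% of all probe sets), and the median difference was 0.20. Mir300 was 1.05 ± 0.182 (SE) higher in LiPS-45 and did not pass, with an adjusted p of 0.0713. The Mir382 call was lost in 11 of 20 alternatives, with adjusted p-values between 0.0134 and 0.175, among them each fit that left out 1 culture of LiPS-45 or LiPS-47, or replicate 3 of LiPS-57 or LiPS-50. A second member passed without LiPS-57 replicate 1 (Mir679) or without LiPS-50 replicate 1 (Mir300). With dim probe sets left out or with log2(intensity + 16), Mir329, Mir679, Mir300, Mir487b and Mir539 also passed, all higher in LiPS-45, and the count was 6 in each.

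In LiPS-57 against LiPS-47, 9 members were lower in LiPS-57 and none was higher, where 0.145% of all probe sets were called lower and 0.0138% higher. They were Mir411, Mir380, Mir329, Mir679, Mir487b, Mir539, Mir134, Mir668 and Mir377. In 24 members every LiPS-57 culture was below every LiPS-47 culture, against 6.23% of all probe sets, and the median difference was -0.52. The largest called difference was in Mir380, at -1.18 ± 0.181 (SE) with an adjusted p of 0.026. The smallest p-values were in Mir679, at -1.03 ± 0.0882 (SE) with an adjusted p of 0.000613, and in Mir329, at -0.87 ± 0.0803 (SE) with 0.00102. Mir679, Mir329 and Mir539 passed under every alternative. The count of 9 was 3 when either replicate 1 of LiPS-47 or replicate 3 of LiPS-57 was left out. It was 5 when replicate 2 of LiPS-47 or replicate 1 of LiPS-57 was left out, when control probe sets were included and when the 2 lines were fitted alone. No microRNA gene outside the domain, of 260, passed in LiPS-45 against LiPS-47 or in LiPS-57 against LiPS-47. An unadjusted p under 0.05 was reached by 31 and 23 of them in that order. Of all 28939 probe sets, 2585 and 1995 reached it.

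**Figure D4:**
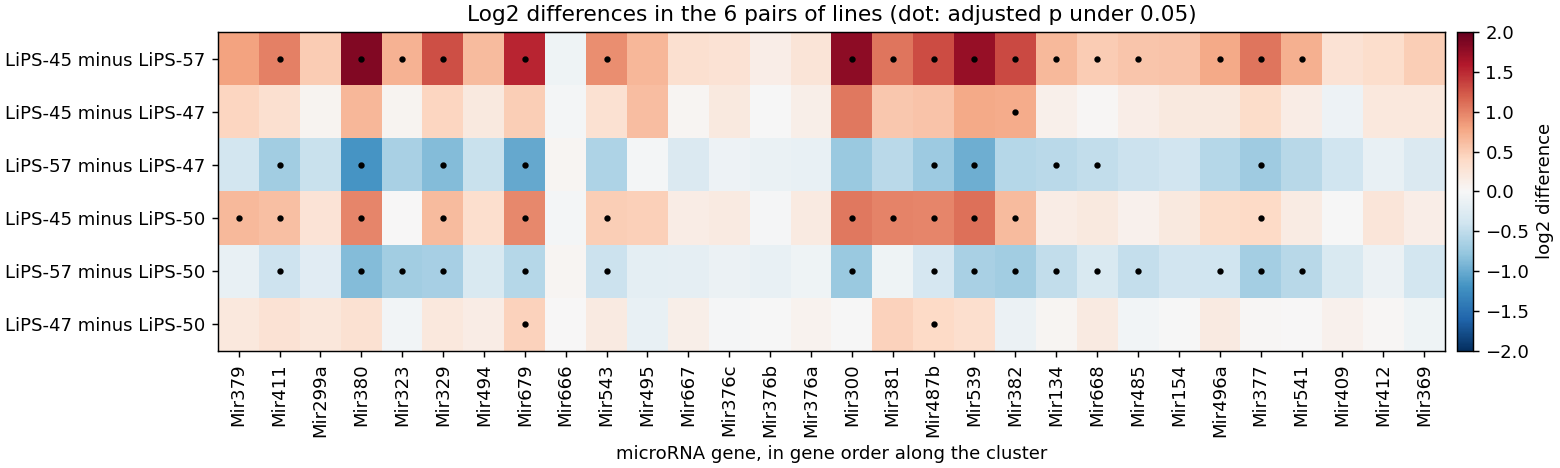
Each row is a pair of lines and each column is one of the 30 members in gene order. The colour gives the difference of the first minus the second line in log2(intensity + 1). A black dot marks an adjusted p under 0.05. The comparisons share cultures and are not independent. The median difference was highest in LiPS-45 against LiPS-57, at 0.68, and closest to 0 in LiPS-47 against LiPS-50, at 0.08.

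LiPS-50 differed from the other lines in many genes, so the counts of members stand against a higher background. In LiPS-45 against LiPS-50, 12 members were higher in LiPS-45 and none was lower, where 8.30% of all probe sets were called higher and 8.18% lower. The largest of these differences were 1.09 ± 0.127 (SE) in Mir539 and 1.05 ± 0.182 (SE) in Mir300, with adjusted p-values of 0.000126 and 0.00203 in that order. All LiPS-45 cultures were above all LiPS-50 cultures in 15 members, against 17.4% of all probe sets, and the median difference was 0.31. Mir379, Mir543 and Mir377 were the 3 of the 12 that lost the call in some alternative: Mir379 when any LiPS-45 culture or replicate 2 or 3 of LiPS-50 was left out, controls were included or the 2 lines were fitted alone (adjusted p 0.00126 to 0.125 over its alternatives), Mir543 without LiPS-45 replicate 2 or 3 or LiPS-50 replicate 2 (0.00982 to 0.0725), and Mir377 without LiPS-45 replicate 3 or LiPS-50 replicate 1 or 2 (0.0189 to 0.109).

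In LiPS-57 against LiPS-50, 16 members were lower in LiPS-57 and none was higher, where 8.16% of all probe sets were called lower and 7.48% higher. The median difference was -0.38, and in 17 members no LiPS-57 culture reached the lowest LiPS-50 culture, against 15.3% of all probe sets. Mir134 was -0.50 ± 0.0773 (SE) with an adjusted p of 0.0011, Mir382 was -0.70 ± 0.111 (SE) with 0.00131, and Mir485 was -0.48 ± 0.0785 (SE) with 0.00149. Of these 3 genes only Mir382 also passed in LiPS-45 against LiPS-50, and the difference between the comparisons was not tested. Of the 16 calls, 10 held under every alternative. Mir487b, at an adjusted p of 0.0459, lost its call in 13 of 20 (0.0214 to 0.170), 9 of which left out 1 culture, and the other 5 were Mir411, Mir543, Mir300, Mir668 and Mir496a. Over the alternatives their adjusted p reached 0.104, 0.128, 0.0633, 0.0603 and 0.132 in the order named. Each of the 5 lost its call without LiPS-57 replicate 1, and each lost it too without LiPS-50 replicate 1, except Mir668, which lost it without LiPS-50 replicate 2. Mir300 and Mir496a also lost it without LiPS-57 replicate 2, and Mir411, Mir543 and Mir496a without replicate 3 of either line, with median centring, with quantile normalization and with controls included.

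In LiPS-47 against LiPS-50, the 2 lines without competence, 2 members were higher in LiPS-47, and none was lower, where 7.31% of all probe sets were called higher and 8.48% lower. Mir679 differed by 0.46 ± 0.0882 (SE), a 1.38-fold higher level, with an adjusted p of 0.00336. Mir487b differed by 0.40 ± 0.102 (SE), 1.32-fold, with an adjusted p of 0.0176. The Mir487b call was lost without LiPS-47 replicate 1 or LiPS-50 replicate 2 (adjusted p of 0.0602 and 0.0660), and the count was 1 in each of those fits and 4 without LiPS-50 replicate 1. The median over the members was 0.08, 7 members had an unadjusted p under 0.05 (27.1% of all probe sets), and in 7 every LiPS-47 culture was above every LiPS-50 culture (16.4% of all probe sets).

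Fibroblast markers moved between the lines in another pattern. In LiPS-45 against LiPS-57 none of the 17 measured markers passed the test or had an unadjusted p under 0.05, and their median difference was -0.00. Against LiPS-50, 16 of the 17 were called lower in each of the other lines. The share of all probe sets called lower was 8.18% for LiPS-45, 8.16% for LiPS-57 and 8.48% for LiPS-47. The median differences over the 17 markers were -0.65 for LiPS-45, -0.67 for LiPS-57 and -0.83 for LiPS-47. None of their summed intensities came near 0, and the part of these cells in the cluster's differences from LiPS-50 was not tested. Trophectoderm markers differed in part in the direction of the cluster. In LiPS-45 against LiPS-57 none of the 8 passed, 4 had an unadjusted p under 0.05, all with a higher level in LiPS-45 (8.01% of all probe sets in either direction), and the median difference was 0.20. Krt18, Krt8 and Krt19, keratins of simple epithelia, had differences of 0.26, 0.33 and 0.34. In LiPS-57 against LiPS-47 these 3 keratin genes were lower in LiPS-57, with differences of -0.73, -0.72 and -0.73 in the same order, where 0.145% of all probe sets were called lower. The other 5 markers did not pass there, with 3 positive differences and 2 negative ones. In LiPS-45 against LiPS-47 none of the 8 passed, and 4 had an unadjusted p under 0.05 (2585 of all 28939 probe sets). Of those 4 markers, 3 were lower in LiPS-45, opposite to the cluster, and 1 was higher. The summed intensity of the 8 markers was 3371 to 3479 in LiPS-45, 2516 to 3172 in LiPS-57, 4041 to 4728 in LiPS-47 and 2786 to 2961 in LiPS-50, and the part of such cells in the cluster's differences was not tested.

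**Figure D5:**
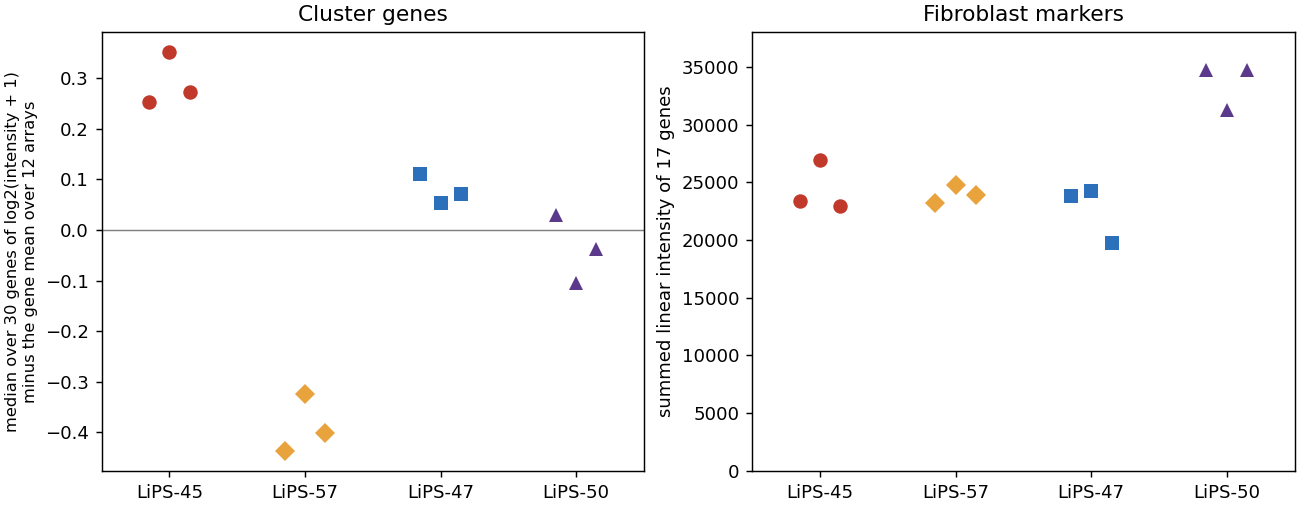
Each point is a culture, grouped by line. The left panel gives the median over the 30 members of log2(intensity + 1), centred on each member's mean. The right panel gives the summed intensity of the 17 fibroblast markers. LiPS-45 and LiPS-57 share the range of fibroblast signal and differ in the cluster, while the LiPS-50 cultures lie at the highest fibroblast signal, 31241 to 34773.

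The arrays gave no call by labelled competence, in the cluster or in any other probe set. With LiPS-45 and LiPS-57 together against LiPS-47 and LiPS-50, and the line as a random block, none of the 30 members passed and none had an unadjusted p under 0.05. Of all probe sets tested, 0% passed at an adjusted p under 0.05, so the count of members is the background itself, and 7.69% had an unadjusted p under 0.05. The members' adjusted p-values ran between 0.664 and 0.999, their differences between -0.32 and 0.22, and their median was -0.07. In no member did the 6 competent cultures lie apart from the 6 cultures without competence, which 0.480% of all probe sets did on the higher side and 0.321% on the lower side. The lowest p was in Mir323, whose difference of -0.32 ± 0.170 (SE) had values of 5.87, 5.86 and 5.79 in LiPS-45 and 5.46, 5.10 and 4.85 in LiPS-57, against 5.85, 5.82 and 5.69 in LiPS-47 and 5.69, 5.85 and 5.96 in LiPS-50. LiPS-57 alone was low, while LiPS-45 overlapped both lines without competence.

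The long non-coding RNAs of the same domain had the same order of LiPS-45 and LiPS-57. The probe set shared by Mirg and Mir410, at the far end of the cluster, had 6.10, 6.04 and 6.37 in LiPS-45, against 4.31, 4.87 and 4.45 in LiPS-57, with 5.82, 6.03 and 6.00 in LiPS-47 and 5.27, 5.57 and 5.61 in LiPS-50. LiPS-57 lay below all other lines and LiPS-45 above them, and the difference between these 2 was 1.63 ± 0.142 (SE) with an adjusted p of 0.000139. LiPS-45 exceeded LiPS-57 by 1.10 ± 0.0786 in Meg3 and 1.30 ± 0.126 in Rian (SE), with adjusted p-values of 3.85e-05 and 0.000352 in that order. Among 10 measured microRNA genes next to Meg3, Mir127 (1.10, adjusted p 0.00219) and Mir370 (0.79, adjusted p 0.0184) passed, where 0.214% of all probe sets were called higher. All 10 differences were positive, with a median of 0.38. An unadjusted p under 0.05 was reached by 6 of the 10, against 8.01% of all probe sets. The protein-coding genes that are expressed from the paternal chromosome, Dlk1, Rtl1 and Dio3, had differences of -0.06, 0.25 and -0.19 and did not pass. Rtl1 had 5.92, 6.12 and 5.82 in LiPS-45, all above the 5.67, 5.80 and 5.63 in LiPS-57. Such a separation held for 7.39% of all probe sets. The cultures of these lines overlapped in Dlk1 and Dio3.

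Genes that make, edit or use microRNAs were compared as well. Of 26 listed, 25 were measured, and none passed in LiPS-45 against LiPS-57, LiPS-45 against LiPS-47 or LiPS-57 against LiPS-47. Against LiPS-50, 7 were higher in LiPS-45 (8.30% of all probe sets), 6 in LiPS-57 (7.48%) and 6 in LiPS-47 (7.31%), where Tut7 was lower. Dicer1, the enzyme that cuts hairpins to mature strands, differed by 0.15 between LiPS-45 and LiPS-57. Lin28b, which binds let-7 precursors, was 1.18 ± 0.0661 (SE) higher in LiPS-45 than in LiPS-50, and in LiPS-57 and LiPS-47 it was 1.02 and 1.01 higher than in LiPS-50. MicroRNA genes known for high expression in pluripotent cells, 10 of 18 measured, had no call in LiPS-45 against LiPS-57. Of the 10, 4 had an unadjusted p under 0.05, against 8.01% of all probe sets, and all 4 differences were negative, opposite to the cluster. The smallest p-values were those of Mir19b-1, at -0.64 (adjusted p 0.212), Mir20a, at -0.42 (0.355), and Mir18, at -0.21 (0.554), all from the Mir17 cluster. Over the 10 genes the differences ran between -0.64 and 0.23, with 6 negative and 4 positive ones and a median of -0.11. The 8 listed targets of cluster microRNAs had no call in LiPS-45 against LiPS-57, with differences of 0.23 in Nr5a2, 0.10 in Pum2 and -0.10 in Limk1.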

How the data were processed

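The deposited table gives an intensity per probe set and array on a linear scale. Per the submitters' processing notes the software was GCOS 1.4; how the authors summarised and normalized the intensity values is not given in the sources used here. Probe sets were named through the platform annotation. Of 35556 probe sets, 6617 numbered below every probe set in the gene annotation were left out and 28939 were tested. Those left out were presumed to be controls and are called control probe sets here, but the sources used here do not state their type. Values were used as log2(intensity + 1), with no further normalization.

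Lines were compared in 1 limma fit of 4 line means over 12 arrays (R 4.3.3, limma 3.58.1), with 8 residual and 4.06 prior degrees of freedom and Benjamini-Hochberg adjustment over all tested probe sets. An adjusted p under 0.05 was called. For competence, duplicateCorrelation treated lines as a random block (consensus correlation 0.183). An exact permutation test of 3 cultures against 3 cannot go below 0.1 and was not used. The number of arrays limits the precision.

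No 2 arrays held more than 0.607% identical values. Every member could be named. Values of each culture were given for the 10 members with the smallest and the 3 with the largest p in LiPS-45 against LiPS-57 and for members called where at most 3 were. Mature sequences were printed for the 6 smallest p and for shared seeds. Outside the cluster, Meg3, Rian, Mirg, Dlk1, Rtl1, Dio3 and up to 3 genes of a list were named. Mir323, Mir369, Mir376a, Mir376c, Mir379, Mir381, Mir412 and Mir485, given for some or all lines, were chosen after their values were seen. The members and lists were chosen with earlier results of these data known. Sequences are from RefSeq, matched by microRNA name. The alternatives tried were a block for the replicate number, other scalings and offsets, a filter on dim probe sets, controls included, the pair of lines alone, and each array left out.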

Additional observations from a re-analysis of the deposited data

How the results depend on the processing

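No call of a member turned its direction under any alternative run. In LiPS-45 against LiPS-57 the count of 17 was between 12 and 17 with each array left out in turn, 13 with control probe sets included, and 11 of the 15 members still tested with dim probe sets left out, a count lowered by the smaller number tested. In LiPS-45 against LiPS-47 the count of 1 was 2 with median centring, 6 with dim probe sets left out, 6 with log2(intensity + 16), 0 with control probe sets included, 0 with the 2 lines fitted alone and between 0 and 2 with each array left out. In LiPS-57 against LiPS-47 the count of 9 was 5 with controls included, 5 with the 2 lines alone and between 3 and 9 with each array left out. In LiPS-47 against LiPS-50 the count of 2 was between 1 and 4 with each array left out. The cause of these changes was not tested. The counts of 12 and 16 against LiPS-50, in LiPS-45 and LiPS-57, stayed within 1.5 times their size. Competence gave 0 calls under every alternative. One of these replaced the random block for the line by an error from the spread between cultures alone. Taking the mean of all probe sets of a gene was not run, since each member had 1.

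With the replicate number as a block, 16 members were called in LiPS-45 against LiPS-57, 2 in LiPS-45 against LiPS-47 and 4 in LiPS-57 against LiPS-47. The numbers did not pair the samples: deviations of same-numbered cultures correlated between -0.169 and 0.121 over 18 pairs, and 5 of 12 cultures correlated best with one of their own number. The limit of the dim members is signal over background: 15 of 30 lay below the 40th percentile.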
